A study of Thermothelomyces thermophilus ATCC 42464 with 4 samples.

Results

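A list of 64 genes of *Myceliophthora thermophila*, a thermophilic fungus that grows on plant biomass, was examined out of 8716 genes with a value. The genes were chosen by their measured transcript levels after 4 h on Avicel, a crystalline cellulose. Their mean in the wild type MtWT was at least 10 FPKM (fragments per kilobase, a level scaled to gene length and to the mapped fragments of a library), and their mean in the strain labelled ΔMtTrh-1 was at least 4-fold lower, as a log2(FPKM + 1) difference of −2 or below. Unannotated transcripts were not considered, and 23 further identifiers were left out of the list by name. Of the 85 genes past both thresholds, 21 were among those left out. Because the levels themselves chose the 64 genes, their differences between the strains are given as values, and no test of them is used as support.

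The 4 libraries came from 2 groups with the same history. Mycelia of strain ATCC 42464 with the genotype WT (MtWT, 2 libraries), or with the genotype MtTrh-1 deletion (ΔMtTrh-1, 2 libraries), were pregrown for 16 h at 45°C in 2% glucose and moved to 2% Avicel for 4 h. The deleted gene of the labels was taken, without a test, to be MtTRC-1 (MYCTH_90344), because the data set's title ties it to Hac-1 and Cbh-1. The deletion strain of the study carries a neomycin resistance cassette at that locus, made in protoplasts of MtWT, and how many transformants stand behind the libraries was not stated. For its RNA-seq the study names a deposited series other than the one used here. Whether its strain construction and methods hold for these libraries was not tested. MYCTH_90344 itself had 13.3 and 14.5 FPKM in MtWT, yet 215 and 223 FPKM in the libraries labelled ΔMtTrh-1, and its log2 fold change was 3.89 (limma, adjusted p = 5.1e-11). This goes against the label. Whether reads from a stretch outside the replaced part contribute was not tested. For this reason "labelled ΔMtTrh-1" is written throughout and every direction below is that of the labels. The study's methods describe its RNA-seq as done on more independent biological replicates than the 2 libraries per strain analysed here. The labels of these libraries name no separate cultures, so part of the spread between the 2 of a strain may be technical. Library sums ranged from 725984 to 741923 FPKM, and the read depth behind them is unknown. Below, values are those of replicates 1 and 2, and where strains are set against each other MtWT comes first unless stated.

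Filamentous fungi that meet cellulose switch on a set of secreted enzymes. Cellobiohydrolases and endoglucanases hydrolyse the chains, lytic polysaccharide monooxygenases (LPMOs) cut them by oxidation, and cellobiose dehydrogenase oxidises cellobiose and can pass electrons to LPMOs. A carbohydrate-binding module of family 1 is a small domain of fungal enzymes that holds them on crystalline cellulose. Such enzymes are made together with sugar transporters and under the control of dedicated transcription factors. Several genes of such enzymes are among the identifiers left out of the list.

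All 64 genes were called lower in the libraries labelled ΔMtTrh-1 (limma, adjusted p under 0.05 and a fold change over 2), against 4.96% of the 7525 genes tested. Both libraries labelled ΔMtTrh-1 lay below both MtWT libraries for all 64, against 39% of genes tested. The rule used this same contrast, so neither count says anything further about the genes. A log2 difference of −2 or below was found for 1.68% of the 5061 annotated genes with at least 10 FPKM in MtWT, whose median difference was −0.02. The median of the 64 was −2.38. In MtWT the median level of the 64 was 55.2 and 55.8 FPKM, and in the libraries labelled ΔMtTrh-1 it was 7.72 and 8.10 FPKM. For the 5061 genes the medians lay between 34.1 and 34.8 FPKM in the 4 libraries. Together the 64 took 2.53% and 2.72% of total FPKM in MtWT and 0.480% and 0.477% in the libraries labelled ΔMtTrh-1. In mycelium sequenced in bulk, fewer hyphae that express a gene and less RNA per hypha cannot be told apart.

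**Figure D1:**
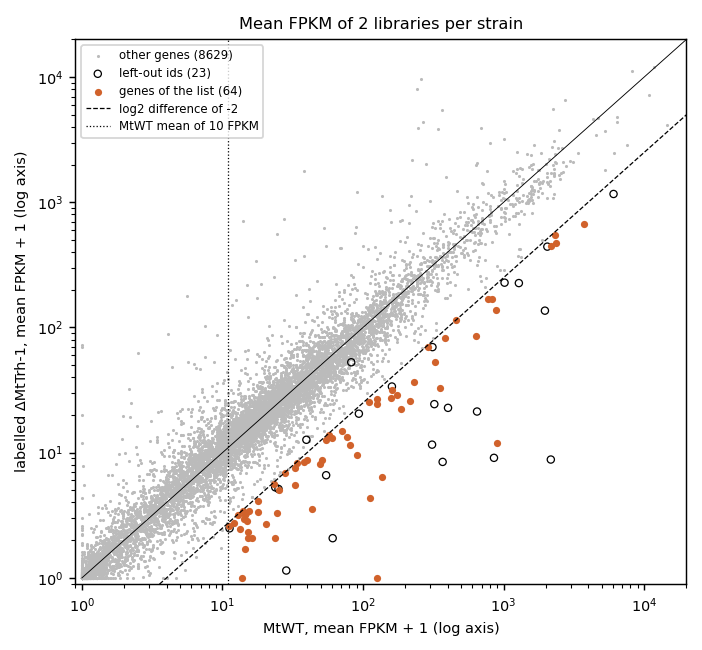
Mean FPKM + 1 of the 2 MtWT libraries (x axis) and of the 2 libraries labelled ΔMtTrh-1 (y axis), both on log axes, with 1 point per gene, the 64 genes in orange and the 23 left-out identifiers as open circles. The dashed line marks the log2 difference of −2 and the dotted line the MtWT mean of 10 FPKM, which together bound the orange points by construction.

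A product description was at hand for 10 of the 64 genes, because the gene table at hand describes 1492 of the 8716 genes. Of these 10, MYCTH_102138 and MYCTH_2054555 are described as hypothetical proteins. By the wording of their descriptions alone, the other 8 fall into proteins of cellulose breakdown or binding, other oxidoreductases and regulatory proteins.

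Among the proteins of cellulose breakdown or binding, *cbdA* (MYCTH_111388 in RefSeq), described as a cellobiose dehydrogenase family protein, was the most abundant. It stood at 2177 and 2509 FPKM in MtWT against 461 and 475 FPKM in the libraries labelled ΔMtTrh-1. On the linear scale it was 5.01-fold lower there. The 2 genes described by a carbohydrate-binding module of family 1, with no enzyme activity named, were both on the list, at very different levels. MYCTH_112399 stood at 760.1 and 790.2 FPKM in MtWT against 166 and 168 FPKM in the libraries labelled ΔMtTrh-1, a log2 difference of −2.21. MYCTH_101354 stood at 13.7 and 13.3 FPKM against 0.63 and 0.78 FPKM, a log2 difference of −3.09. On the linear scale the second of these was 19.1-fold lower, which shows how far the added 1 FPKM compresses the difference of a gene that ends below 1 FPKM. In the wider list of genes described as carbohydrate-active enzymes, 20 of 45 tested were called lower and 3 higher in the libraries labelled ΔMtTrh-1, in which MYCTH_90344 itself was higher. The median log2 fold change of the 45 was −0.65, beside 0.00 for the 1120 described genes tested, of which 79 (7.05%) were called lower and 66 (5.89%) higher. Only 3 of the 20 are among the 64, and 7 of the 45 are among the identifiers left out. A further gene whose description names cellobiose dehydrogenase, MYCTH_111088, is by its glycoside hydrolase family 61 an LPMO gene. It stood at 1724 and 2033 FPKM against 493 and 507 FPKM, short of the 4-fold threshold. MYCTH_81925, listed in the study as a cellobiose dehydrogenase, passed both thresholds but is a left-out identifier. It stood at 1298 and 1270 FPKM in MtWT against 221 and 230 FPKM.

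Of the described oxidoreductases among the 64, MYCTH_112714, a pyridine nucleotide-disulphide oxidoreductase of class II, was the lowest relative to MtWT. It stood at 41.2 and 44.1 FPKM in MtWT against 3.02 and 2.13 FPKM in the libraries labelled ΔMtTrh-1, so 6.04% of the MtWT level was left. Enzymes of this class move electrons between a pyridine nucleotide and a disulphide or other acceptor through bound flavin. A gene described like it, MYCTH_2052693, went the other way, from 2.94 and 3.19 FPKM in MtWT to 10.5 and 11.2 FPKM, and was called higher by limma. MYCTH_2090554, of the glutamate, phenylalanine, leucine and valine dehydrogenases, which interconvert amino acids and keto acids, stood at 174 and 172 FPKM against 28.2 and 27.9 FPKM. The 2 libraries of each strain were closer for it than for most of the list, with a ratio of 1.01 in each strain beside medians of 1.06 in MtWT and 1.10 in the libraries labelled ΔMtTrh-1. The cytochrome P450 MYCTH_112051, of a family of haem monooxygenases, was the least abundant of the 64 in MtWT, at 10.6 and 9.59 FPKM against 1.81 and 1.43 FPKM. Of 13 described cytochrome P450 genes tested, 3 were called lower and none higher (unadjusted p under 0.05 for 6 lower and 2 higher), beside 7.05% and 5.89% of the described genes, the other 2 being MYCTH_112815 and MYCTH_2120988 with log2 fold changes of −1.55 and −1.16. In the wider list of dehydrogenases and other oxidoreductases, 11 of 59 were called lower and 7 higher, with a median log2 fold change of 0.02. Of the 59, 3 are among the 64 and 2 are left-out identifiers. The left-out ones, the 2OG-Fe(II) oxygenase MYCTH_115957 and the aldehyde dehydrogenase MYCTH_113577, passed both thresholds, with log2 differences of −7.94 and −3.05.

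Both regulatory descriptions on the list have a second bearer that was not lower. MYCTH_112362, of the regulators of G protein signalling, which speed the return of heterotrimeric G proteins to their inactive state, stood at 92.1 and 87.2 FPKM in MtWT against 8.30 and 8.97 FPKM in the libraries labelled ΔMtTrh-1, 10.4-fold lower on the linear scale. The other gene so described, MYCTH_2074663, stood at 56.5 and 53.6 FPKM against 69.7 and 73.1 FPKM and was not called. MYCTH_110028, described by a basic helix-loop-helix dimerisation region, a fold of many DNA-binding proteins, stood at 2131 and 2505 FPKM in MtWT against 554 and 539 FPKM. Its MtWT mean ranked 32 among all genes of the table. The other described gene of this kind, MYCTH_2088766, stood at 15.8 and 17.7 FPKM in MtWT against 27.5 and 26.4 FPKM in the libraries labelled ΔMtTrh-1, and was not called. Among 36 described transcription regulators tested, 3 were called lower and none higher (unadjusted p under 0.05 for 11 lower and 15 higher), a share of lower calls near that of the described genes, 7.05%, with a median log2 fold change of 0.02. Among 55 genes in the list of signalling proteins 2 were called lower and 1 higher, and the lower ones were MYCTH_112362 and MYCTH_110651, an LPMO gene caught by the wording of its description. Such wording also took in other genes outside signalling, among them the lycopene cyclase MYCTH_2022110 and the F-actin capping protein MYCTH_2088191. The 55 are therefore no clean family. No transporter, peptidase, lipase, secondary metabolism or translation gene is described among the 64. For transporters and for lipases and esterases this depends on what was left out by name. The left-out transporter MYCTH_107763 and the left-out acetylxylan esterase MYCTH_2066457 passed both thresholds, with log2 differences of −4.63 and −2.16. In the list of transporters, 7 of 55 were called lower and 7 higher by limma (unadjusted p under 0.05 for 16 lower and 26 higher). Of 12 peptidases 1 was lower and 1 higher (unadjusted, 2 and 4), and of 13 lipases and esterases 1 was lower (3 and 5). Of 15 secondary metabolism genes 1 was higher (unadjusted, 3 lower and 6 higher). None of 28 ribosome and translation genes was called (unadjusted, 13 lower and 5 higher). Of all described genes tested, 7.05% were called lower and 5.89% higher.

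The highest level in MtWT belonged to a gene with no description at hand. MYCTH_2303045 led the list at 3619 and 3821 FPKM in MtWT, rank 15 of all genes, against 677 and 669 FPKM in the libraries labelled ΔMtTrh-1. MYCTH_33936 stood at 2116 and 2254 FPKM against 451 and 442 FPKM. With *cbdA* and MYCTH_110028 these were the 4 genes of the list above 1000 FPKM in MtWT, and 18.1% to 23.6% of their MtWT mean was left. The 5 most abundant genes of the list held 58.5% and 59.6% of its summed FPKM in MtWT, so sums over the list mostly follow them. MYCTH_2313146 stood at 848 and 918 FPKM against 144 and 132 FPKM. MYCTH_2112799 stood at 799 and 851 FPKM against 164 and 170.3 FPKM. MYCTH_68753 stood at 630.3 and 642 FPKM against 88.6 and 79.6 FPKM. Of these 3 genes it had the lowest share left, 13.2%. MYCTH_97137 stood at 454 and 460.2 FPKM against 109 and 117 FPKM, and MYCTH_2298502 at 397 and 372 FPKM against 80.1 and 82.8 FPKM. In all, 22 genes of the list lay between 100 and 1000 FPKM in MtWT and 38 below 100 FPKM, 18 of these below 20 FPKM.

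**Figure D2:**
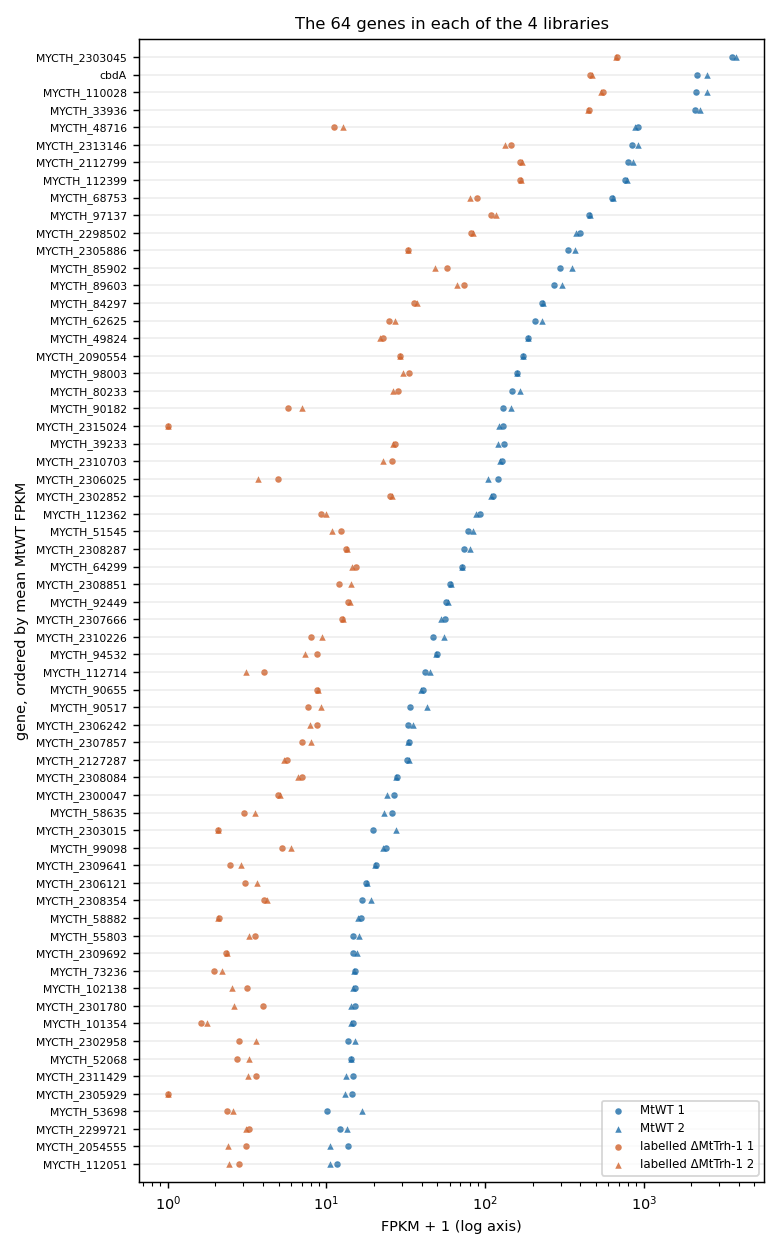
FPKM + 1 (log axis) of each of the 64 genes in the 4 libraries, ordered by mean MtWT level, with circles for replicate 1 and triangles for replicate 2. Blue MtWT points lie to the right of both orange points in every row, and the orange points of MYCTH_2315024 and MYCTH_2305929 lie at 1, that is at a listed FPKM of 0.

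The largest differences were of 2 kinds, genes that kept a low level and genes listed at 0. MYCTH_48716 stood at 918 and 876 FPKM in MtWT against 10.2 and 11.7 FPKM in the libraries labelled ΔMtTrh-1, which is 82.0-fold lower on the linear scale and a log2 difference of −6.23. MYCTH_2306025 stood at 120 and 104 FPKM against 3.98 and 2.69 FPKM. MYCTH_90182 stood at 128 and 144 FPKM against 4.74 and 6.05 FPKM. For these genes 1.22%, 2.98% and 3.96% of the MtWT mean was left, beside a median of 16.3% over the 62 genes above 0. MYCTH_2303015 stood at 18.8 and 26.4 FPKM in MtWT against 1.07 and 1.08 FPKM. MYCTH_2305886 stood at 334 and 368 FPKM against 31.6 and 31.6 FPKM, and MYCTH_49824 at 187 and 185 FPKM against 21.9 and 20.7 FPKM. MYCTH_62625 stood at 204 and 226 FPKM against 23.8 and 26.1 FPKM, a log2 difference of −3.06. A log2 difference of −3 or below was reached by 10 of the 62 genes above 0.

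MYCTH_2315024 was listed at 0 in both libraries labelled ΔMtTrh-1 and at 129 and 122 FPKM in MtWT. MYCTH_2305929 was also listed at 0 in both, and at 13.5 and 12.04 FPKM in MtWT. No fold is given for them, because a listed 0 need not be an absent transcript in this table. MYCTH_2309423, outside the list, was listed at 0 in the first library labelled ΔMtTrh-1 and at 21.9 FPKM in the second. Right beside MYCTH_2315024 in genome order, the heavy metal transport and detoxification gene MYCTH_2117900 stood at 100.6 and 97.2 FPKM in MtWT against 306 and 302 FPKM. Beside MYCTH_2305929, MYCTH_69953 stood at 37.2 and 37.4 FPKM in MtWT against 1796 and 1742 FPKM. Both genes listed at 0 therefore lie next to a gene that limma called higher, and the part of this in the zeros was not tested. Their direct neighbours on the other side, MYCTH_2138808 and MYCTH_2305931, had log2 differences of −0.34 and −0.07 and were not called. Among the 86 direct neighbours of listed genes tested, 6.98% were called higher, beside 5.3% of all genes tested.

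The remaining 40 genes, with neither a description of a known product, nor a place among the 12 highest or the 12 most reduced, had by that choice a narrower range. Their MtWT means ran from 11.1 to 324 FPKM and their means in the libraries labelled ΔMtTrh-1 from 1.09 to 69.1 FPKM. The log2 differences ran from −2.96 to −2.01 with a median of −2.26, and 7.16% to 24.1% of the MtWT level was left. MYCTH_85902 was the most abundant of them, at 298 and 351 FPKM in MtWT and 56.2 and 47.7 FPKM in the libraries labelled ΔMtTrh-1. MYCTH_58882 had the largest difference of them, with 15.6 and 14.8 FPKM against 1.11 and 1.07 FPKM.

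The libraries of a strain were close for most of the list. Across the 64 genes, the log2 difference between the 2 libraries had an SD of 0.163 in MtWT and 0.186 in the libraries labelled ΔMtTrh-1, beside 0.153 and 0.164 over all genes tested. MYCTH_53698 had the widest ratio in MtWT, 1.73, at 9.08 and 15.7 FPKM. MYCTH_2301780 had the widest ratio in the libraries labelled ΔMtTrh-1, at 2.96 and 1.62 FPKM. When each library labelled ΔMtTrh-1 was set against each MtWT library, all 4 pairs were at −2 or below for 49 genes, and at least 1 pair fell short for 15. The smallest difference of any pair was −1.76, for MYCTH_2054555, which stood at 12.6 and 9.51 FPKM in MtWT against 2.11 and 1.41 FPKM. Genes near the fold threshold differed from each other by less than this spread. Just inside it lay MYCTH_2308084 at −2.02, MYCTH_97137 at −2.01 and MYCTH_2299721 at −2.01, and just outside it MYCTH_2304739 at −1.97, MYCTH_2312607 at −1.95 and MYCTH_62925 at −1.93. By level, MYCTH_112051, MYCTH_2054555 and MYCTH_2299721 with means of 10.1, 11.1 and 11.8 FPKM in MtWT were the last inside, and MYCTH_95623, MYCTH_2306267 and MYCTH_54466 with 8.96, 8.75 and 7.57 FPKM the first outside. A pseudocount of 5 in place of 1 left 30 of the 64 genes on the list.

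**Figure D3:**
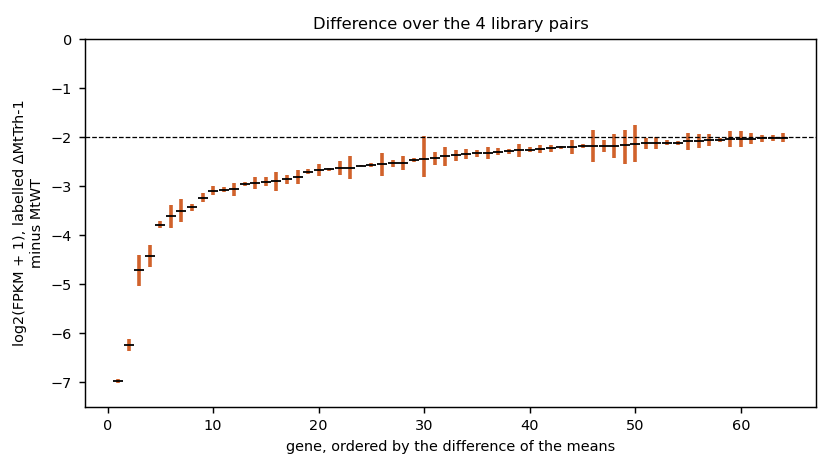
Difference in log2(FPKM + 1), labelled ΔMtTrh-1 minus MtWT, for the 64 genes in order of the difference of the means (black ticks), with an orange bar from the lowest to the highest of the 4 library pairs. The dashed line is the threshold of −2, which the bars of 15 genes cross, and the genes at places 1 and 5 are listed at 0 in the libraries labelled ΔMtTrh-1, so their position depends on the pseudocount.

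The identifiers left out by name include a run of neighbouring genes, so counts of close pairs on the list depend on what was left out. In the gene order of the RefSeq assembly, which holds all 64, 3 pairs of listed genes lay within 3 places of each other and 4 listed genes lay within 3 places of a left-out identifier. MYCTH_62625 and MYCTH_99098 were direct neighbours. The latter stood at 22.8 and 21.9 FPKM in MtWT against 4.27 and 4.95 FPKM in the libraries labelled ΔMtTrh-1, far below the former in both strains, and the next gene on the far side, MYCTH_2295391, was below 1 FPKM in all libraries. MYCTH_110028 and MYCTH_90517 were separated by MYCTH_90516, which was below 1 FPKM in every library. MYCTH_90517 stood at 32.5 and 42.2 FPKM in MtWT against 6.65 and 8.30 FPKM. MYCTH_80233 and MYCTH_2127287, at 147 and 166 FPKM and at 31.4 and 32.1 FPKM in MtWT, had 2 genes between them that were not lower. These were MYCTH_2305447 with a log2 difference of 0.11 and MYCTH_2305448 with 0.69.

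MYCTH_48716, the listed gene with the largest difference above 0, lay beside a run of left-out genes that were also far lower. On one side came MYCTH_107763, of the major facilitator superfamily of transporters, at 28.4 and 26.5 FPKM in MtWT and 0.08 and 0.21 FPKM in the libraries labelled ΔMtTrh-1. On the other side came MYCTH_50920, which stood at 185 and 176 FPKM against 90.6 and 91.8 FPKM, and then the left-out genes MYCTH_2303709, MYCTH_81364, MYCTH_2303707, MYCTH_2138881 and MYCTH_2303702. The log2 differences of these 5 were −5.45, −4.93, −3.72, −4.74 and −4.14, and that of MYCTH_107763 was −4.63. MYCTH_50920, in the middle of this stretch, was lower by 0.98 on the log2 scale and was not called. MYCTH_58882 opened a run of 3, followed by MYCTH_104674 of glycoside hydrolase family 31, with −2.29, and the sugar transporter MYCTH_104673, at 6.13 and 5.18 FPKM against 0.91 and 1.13 FPKM. MYCTH_33936 was 1 gene away from MYCTH_112089, an LPMO gene of glycoside hydrolase family 61 at 6127 and 5995 FPKM in MtWT. On its other side MYCTH_108493, described as a necrosis inducing factor, stood at 4.98 and 5.38 FPKM against 1.03 and 0.46 FPKM and was called lower. MYCTH_2301780 lay beside a further LPMO gene, MYCTH_100518, at 2010.0 and 2086 FPKM in MtWT, where it stood at 14.2 and 13.3 FPKM itself.

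**Figure D4:**
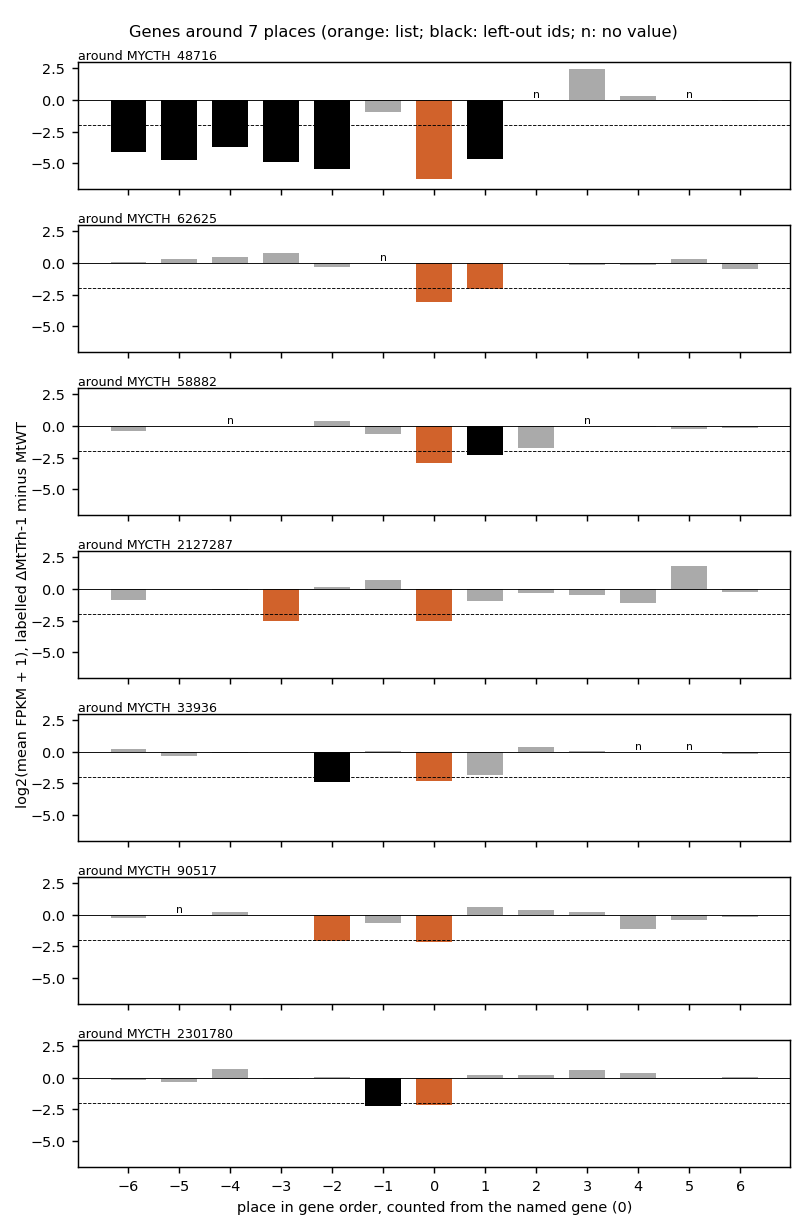
Log2(mean FPKM + 1), labelled ΔMtTrh-1 minus MtWT, for the 6 genes on either side of 7 listed genes in RefSeq gene order, which cover the 3 close pairs and the 4 listed genes close to a left-out identifier. Orange bars are listed genes, black bars left-out identifiers and grey bars other genes, n marks a gene with no value, and the dashed line is at −2. The panel around MYCTH_48716 holds the lowest bar of a listed gene, −6.23, and 6 black bars between −5.45 and −3.72.

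Direct neighbours of the 64 genes mostly differed little between the strains, with some exceptions. Leaving aside listed and left-out genes, 13 of the 86 direct neighbours tested were called lower by limma, 15.1%, beside 4.96% of all genes tested. The 4.96% counts the 64 listed genes, all called lower, and the left-out identifiers, so it lies above the share of the other genes. At 2 places the share of neighbours called lower was 5.88%, at 3 places 4.08%, and at 4 to 6 places it lay between 3.23% and 5.81%. Called higher were 6 of the 86, 6.98%, beside 5.3% of all genes tested. The median log2 difference of the 86 was −0.11. The difference in these shares between near and far genes was not tested. MYCTH_2305886 and MYCTH_39233 had a lower neighbour on each side. For MYCTH_2305886 these were MYCTH_2305882, with 11.8 and 12.02 FPKM in MtWT against 3.28 and 2.21 FPKM, and MYCTH_2305890, with 68.8 and 75.6 FPKM against 20.1 and 19.4 FPKM. For MYCTH_39233, itself at 130.2 and 119.99 FPKM against 26.0 and 25.4 FPKM, they were MYCTH_2084107 and MYCTH_2311062, with log2 differences of −1.47 and −1.39. MYCTH_73236 followed MYCTH_2299804 and MYCTH_2299806, with −1.62 and −1.52, and stood itself at 14.3 and 14.0 FPKM against 0.96 and 1.21 FPKM. MYCTH_2306025 lay at a turn of direction. The gene before it, MYCTH_2306020, had a log2 difference of −1.46, while the 3 genes after it, MYCTH_2306027, MYCTH_16301 and MYCTH_2306028, had 1.80, 1.07 and 1.46. In RefSeq, 4 of the 64 genes overlap a neighbour, by at most 27 bases, and whether the counting used strand was not stated. Among them MYCTH_2310226, at 45.7 and 54.3 FPKM in MtWT against 7.04 and 8.35 FPKM, overlaps MYCTH_2310225, whose log2 difference was −1.58. The value of either gene of such a pair could hold reads of the other.

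**Figure D5:**
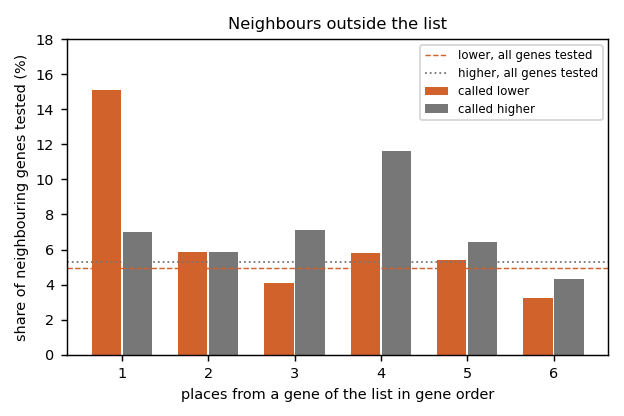
Share of tested genes (%) called lower (orange) or higher (grey) by limma at 1 to 6 places from a listed gene in RefSeq gene order, without listed and left-out genes. The dashed and dotted lines mark the shares over all 7525 genes tested, 4.96% lower and 5.3% higher, which unlike the bars count listed and left-out genes. The orange bars stand at 15.1% at 1 place and at 3.23% to 5.88% farther away.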

How the data were processed

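RNA of 4 libraries was deposited by the authors as 1 FPKM value per gene and library, for 8716 genes, of which 123 were at 0 in all. HISAT and Bowtie2 are named, without versions, in the submitters' processing notes. The study's methods instead describe TopHat alignment to predicted transcripts of strain ATCC 42464 and HTSeq-count for unique reads, with abundances as RPKM. Which of these made the deposited FPKM, and on which named build, is not given in the sources used here. As FPKM are no counts, log2(FPKM + 1) was tested for 7525 genes whose mean reached 1 FPKM. The test was limma 3.58.1 in R 4.3.3 (intensity trend, no covariate) with Benjamini-Hochberg adjustment over all of them. A call required an adjusted p below 0.05 together with a change of more than 2-fold on this scale, which understates changes of low genes. The fit was checked on simulated data. Members followed the rule given in the report, from group means. The members and gene lists were chosen with earlier results of these data known. Lists matched words in the product descriptions of a supplementary gene table, held in part. They therefore hold some genes outside the family named, and some genes stand in several lists. Genes named are the 12 highest in MtWT, the 12 most reduced, those with a description, those with a listed gene within 3 places, those with the widest spread and those beside the thresholds. Genes beside these that were also called, and genes with the same description, were named after their values were seen. Of 8716 identifiers, 8687 matched RefSeq (ASM22609v1), used for names and gene order only. Protein and promoter features were not analysed here. As the depth is unknown, no counting interval is given. Other pseudocounts, filters, scalings, variance models and thresholds were tried, as were a replicate block and the omission of each library. Plots were drawn with matplotlib 3.10.9.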

Additional observations from a re-analysis of the deposited data

How the results depend on the processing

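All 64 genes kept their direction and their call in limma under the 12 alternatives run for single genes, which their selection on the same contrast nearly fixes and which is no sign of stability. The number of genes that the rule selects was 64, and 57 to 64 without 1 library. It was 75 at a pseudocount of 0.1, 46 at a floor of 20 FPKM and 30 at a pseudocount of 5. By construction a larger pseudocount shrinks the difference of low genes. Of the 64, 51 were selected in all 4 sets that leave out a library. Pairs of listed genes within 3 places numbered 5 at a pseudocount of 0.1 and 0 at 5, and 2 to 3 without 1 library. Over all genes, 373 were lower and 399 higher, 240 and 253 at a pseudocount of 5, 2356 and 2570 with no fold threshold, and 373 and 400 with a replicate block. The replicate numbers were not used to pair the samples in the main fit. Deviations of libraries with the same number had a correlation of −0.02 across genes, which cannot show whether the libraries were handled in pairs. Peptidases called lower numbered 2 at a pseudocount of 0.1 in place of 1, and 1 to 2 without 1 library, with the 2 found without replicate 1 labelled ΔMtTrh-1. With 1 library left out, the lone library is assumed to vary like the others. Unknown depth limits all values of a few FPKM.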
